A study of Homo sapiens with 49 samples.

Results

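Retinoic acid receptor alpha (RARA) occupancy was mapped by ChIP-seq in T-47D, an established human line from a ductal breast carcinoma that carries estrogen receptor, after 1 h of 17β-estradiol (E2) at 10 nM or of the vehicle DMSO. Before treatment both cultures had been kept in hormone-depleted medium, and the antibody was raised against RARA. The DMSO list held 844 regions and the E2 list 755, out of 528044 regions in the 45 peak lists of the series. Regions that overlapped by at least 1 bp were joined, which gave 1007 RARA regions in 3 classes: 592 shared by both treatments, 252 in DMSO alone (DMSO-only) and 163 in E2 alone (E2-only). Each shared region paired exactly 1 peak of each list. Each treatment was a single library, so no test between treatments was possible, and the intervals given below are exact (Clopper-Pearson) 95% binomial intervals that cover counting error only.

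RARA is a nuclear receptor that binds DNA as a partner of the retinoid X receptors, recruits corepressors such as NCOR1 without ligand and coactivators with retinoic acid. Its textbook elements are direct repeats of a short half-site, spaced by 5 or 2 bases. RARA itself is a classical estrogen-induced gene in breast cancer cells, and RARA and estrogen receptor are known to share many enhancers there. A different promoter element becomes relevant in what follows: the CCAAT box, read as ATTGG on the opposite strand, which is bound by the trimeric factor NF-Y (NFYA, NFYB and NFYC) a short way upstream of many start sites, often in several copies.

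Sequence reaching 100 bp to each side of the summit, the point of highest signal, is shown for 7 regions, because the repeated CCAAT boxes in most of them recur throughout the lists. It is plus-strand GRCh37 sequence, with every CCAAT or ATTGG in capitals. The first 3 lines are from the shared regions with the highest fold enrichment, by the lower of both lists. They lie at the genes of the clock activator BMAL1, the winged-helix factor RFX1 and the endoplasmic reticulum stress kinase EIF2AK3.
BMAL1, chr11:13299007-13299207: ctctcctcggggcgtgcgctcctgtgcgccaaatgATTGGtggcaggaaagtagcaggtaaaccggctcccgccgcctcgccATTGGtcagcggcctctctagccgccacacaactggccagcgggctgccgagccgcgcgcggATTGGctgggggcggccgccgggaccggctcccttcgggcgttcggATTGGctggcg
RFX1, chr19:14117175-14117375: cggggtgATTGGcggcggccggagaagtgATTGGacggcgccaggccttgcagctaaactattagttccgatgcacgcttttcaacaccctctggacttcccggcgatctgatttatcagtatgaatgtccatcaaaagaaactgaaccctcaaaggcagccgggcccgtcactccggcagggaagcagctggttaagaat
EIF2AK3, chr2:88927138-88927338: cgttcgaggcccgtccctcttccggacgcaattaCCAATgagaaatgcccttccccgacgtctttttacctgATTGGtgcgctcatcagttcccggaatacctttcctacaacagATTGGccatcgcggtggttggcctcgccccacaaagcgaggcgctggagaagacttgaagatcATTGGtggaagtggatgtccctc
The next 2 lines are the strongest DMSO-only regions, at the genes of the lipid-binding protein OSBPL9 and the small GTPase RAB40B.
OSBPL9, chr1:52195310-52195510: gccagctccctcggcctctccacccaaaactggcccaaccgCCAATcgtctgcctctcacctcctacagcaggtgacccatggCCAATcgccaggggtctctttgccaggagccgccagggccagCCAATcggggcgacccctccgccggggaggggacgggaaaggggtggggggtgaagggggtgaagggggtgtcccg
RAB40B, chr17:80656573-80656773: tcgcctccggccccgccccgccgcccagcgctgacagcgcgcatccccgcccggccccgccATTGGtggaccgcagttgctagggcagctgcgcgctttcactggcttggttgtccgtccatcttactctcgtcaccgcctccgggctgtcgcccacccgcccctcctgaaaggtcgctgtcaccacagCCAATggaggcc
The last 2 lines are the strongest E2-only regions. The first lies in an intron of ENSG00000284686 and has no copy. The other is at the start site of the ubiquitin ligase gene TRIM68.
ENSG00000284686, chr1:56882145-56882345: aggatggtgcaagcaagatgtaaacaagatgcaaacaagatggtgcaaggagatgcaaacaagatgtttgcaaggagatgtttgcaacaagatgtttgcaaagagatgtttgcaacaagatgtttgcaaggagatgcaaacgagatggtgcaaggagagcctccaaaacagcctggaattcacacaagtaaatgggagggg
TRIM68, chr11:4629456-4629656: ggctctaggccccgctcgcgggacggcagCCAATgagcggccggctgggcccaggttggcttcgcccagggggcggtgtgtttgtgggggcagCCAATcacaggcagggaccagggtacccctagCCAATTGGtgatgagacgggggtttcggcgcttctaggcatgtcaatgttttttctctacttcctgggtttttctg

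The CCAAT box, searched on both strands with overlapping matches counted apart, was present in 789 of the 1000 summit windows that could be read (78.9%, 95% interval 76.2 to 81.4). The other 7 regions were mitochondrial. The share was 88.8% in shared regions (522 of 588, 85.9 to 91.2), 75.3% in E2-only regions (122 of 162, 67.9 to 81.7) and 58.0% in DMSO-only regions (145 of 250, 51.6 to 64.2). The same element was found in 28.4% of 19811 windows of equal length at protein-coding start sites, 21.7% of windows at TAF1 regions and 17.5% of windows at JUN regions of DMSO-treated T-47D cells. TAF1 is a subunit of the general transcription factor TFIID and JUN a subunit of AP-1. The copies were centred on the RARA summits: the nearest copy lay at a median of 17.0 bp from the summit, and within 25 bp in 65.0% of the windows with a copy.

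**Figure D1:**
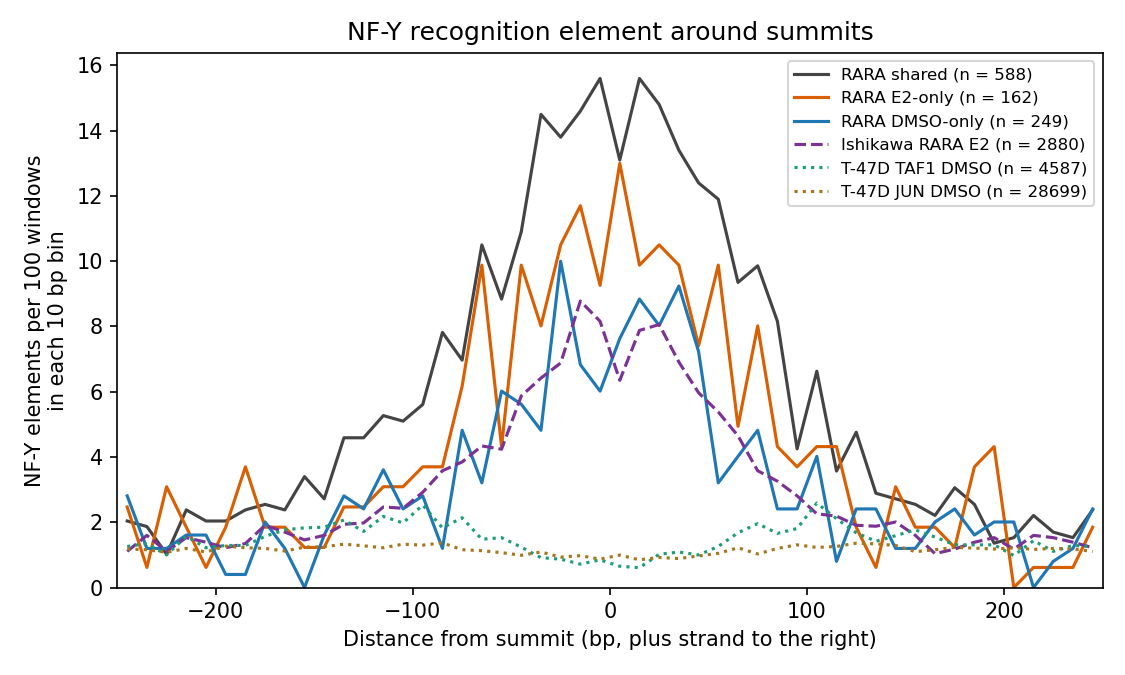
Number of NF-Y recognition elements per 100 windows (vertical axis) in 10 bp bins by distance from the summit in bp (horizontal axis), for the 3 classes of T-47D RARA regions, Ishikawa RARA regions after E2 and T-47D TAF1 and JUN regions of DMSO-treated cells. RARA curves peak at the summit, at up to 15.6 copies per 100 windows for shared regions, where the TAF1 curve lies between 0.610 and 1.02.

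Copies were also clustered. At least 2 copies were present in 71.6% of shared, 51.2% of E2-only and 36% of DMSO-only windows, against 8.21% of protein-coding start-site windows. At least 3 were present in 41.0%, 24.1% and 10.4% of these classes, against 1.72%. Among 1034 pairs of neighbouring copies in RARA windows, 180 had starts 30 to 33 bp apart and 137 had starts 39 to 43 bp apart, or 45 and 27.4 pairs per bp of spacing. Between these ranges, at 34 to 38 bp, there were 17.2 pairs per bp. Pairs in all protein-coding start-site windows had the same spacings in similar shares, with 15.1% at 30 to 33 bp against 17.4% in RARA windows and 12.3% against 13.2% at 39 to 43 bp.

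The fold enrichment, the deposited ratio of ChIP pileup to local background at the summit with 1 tag added to each, was higher in windows with more copies. Its median, taking the higher value of both lists, was 6.65 in the 211 windows with no copy, 7.90 with 1, 8.11 with 2, 10.2 with 3 and 14.2 in the 102 windows with 4 or more. The shared class accounted for 31.3% of windows with no copy and for 81.4% of those with 4 or more. Within the shared class alone the medians ran from 7.09 with no copy to 14.9 with 4 or more. Within DMSO-only and E2-only regions they spanned a narrower range, 6.61 to 8.42 and 6.09 to 7.24, and did not rise at every step. The value of 8.42 came from 7 windows. Over all classes, start sites were at 56.9% of windows with no copy and 96.1% of those with 4 or more.

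**Figure D2:**
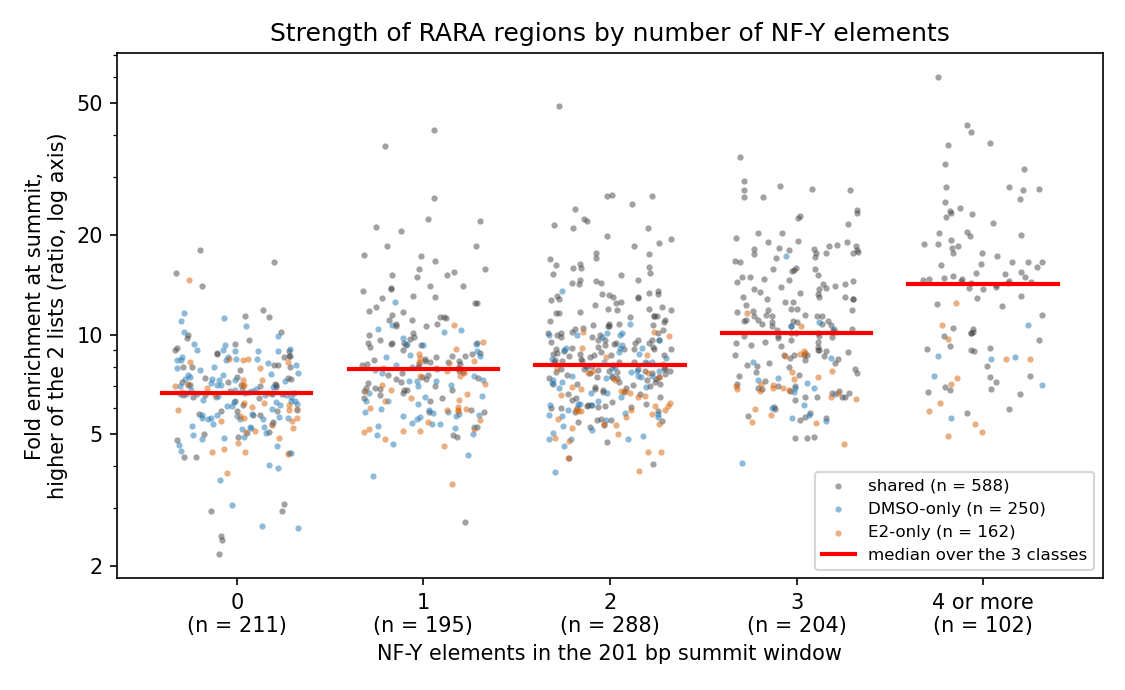
Fold enrichment at the summit (vertical axis, a ratio on a log axis, higher of both lists) of each RARA region by the number of NF-Y elements within 100 bp of the summit (horizontal axis), coloured by class, with a red line at each median over the classes. The median rises from 6.65 with no element to 14.2 with 4 or more, and the 5 columns overlap.

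Retinoid elements were searched in the same windows on both strands. The direct repeat of AGGTCA spaced by 5 bases was found in 0 of 1000 windows, as was the repeat spaced by 2, which allows a share of up to 0.300% for each by 3 counts of the total and 0.368% by the exact interval. With degenerate half-sites, a choice made after the exact repeats had been counted, these elements were again found in 0 windows. Among protein-coding start-site windows 0.00505% held the exact repeat spaced by 5 bases and 0% that spaced by 2. The repeat spaced by 1 base occurred in 2 windows, at TMA7 and MRPS28 (0.200%, against 0.0353% of start-site windows). The estrogen response element, searched as GGTCANNNTGACC, occurred in 2, in an intergenic region nearest to MED13L and in an intron of MIDEAS (0.200% against 0.0404%). A single half-site AGGTCA was present in 7.40% of RARA windows (5.85 to 9.20) against 7.18% of protein-coding start-site windows. The forkhead letters TGTTTAC stood in 3.50% of RARA and 1.50% of start-site windows, and the GC box GGGCGG in 47.1% and 55.9%. A match is only a description of the sequence, no match says only that these letters are not in the window, and which protein was on the DNA was not tested.

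Most of the occupancy was common to both treatments. E2 regions overlapped 70.1% of the DMSO list (66.9 to 73.2), and DMSO regions overlapped 78.4% of the E2 list (75.3 to 81.3). Ordered by p-value, the strongest 200 regions of either list were all shared, and the first region found in 1 list alone ranked 242 of 844 in DMSO and 243 of 755 in E2. Ordered by fold enrichment, the first such regions ranked 85 in DMSO, at OSBPL9, and 110 in E2, in the intron of ENSG00000284686. Among the 200 weakest regions 36.5% were shared in DMSO and 48.5% in E2. The ratio of E2 to DMSO region number was 0.895 (0.810 to 0.988), with 253 kb covered after E2 and 276 kb after DMSO. This interval treats the list sizes as independent counts, although 592 regions are in both lists, and it measures no difference between treatments. Summits of shared pairs were a median of 21 bp apart, and within 100 bp in 572 of 592 pairs.

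The number of tags at each summit and the background around it were solved from the deposited fold enrichment and p-value, which together fix both. The median pileup was 47 tags in DMSO (range 18 to 291) and 54 in E2 (19 to 351). Local backgrounds were whole multiples of 0.314 tags in 81.0% of DMSO peaks and of 0.381 tags in 80.1% of E2 peaks, a ratio of 1.21. If both lists were set against the same control library, which the sources used here do not state, the E2 library was deeper by that ratio. The E2 list was shorter and its median pileup larger.

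At shared regions the fold enrichment after E2 was slightly lower than after DMSO. The median log2 ratio of E2 to DMSO was -0.13 (median interval -0.16 to -0.11, SD 0.29 over 592 regions), with 191 regions higher and 401 lower after E2. The regions of 1 library are not replicates of a treatment. Pileups divided by the background steps gave a median log2 ratio of -0.14, an alternative added after the data had been seen, whereas the -log10 p-value gave 0.01, in the opposite direction. For scale, replicates of RNA polymerase II (RNAPII), the T-47D target with replicates, differed by medians of -1.73 in DMSO and -0.72 in E2 on the same measure, with SDs of 1.11 and 0.56. The RARA shift between treatments was smaller than these differences between replicate libraries of another antibody. Those replicates are a loose scale. Their log2 fold enrichments correlated at 0.402 in DMSO and 0.647 in E2, against 0.918 between the RARA treatments. The second RNAPII DMSO list overlapped 36.9% of the first. Of the 592 regions, 2 changed fold enrichment more than 2-fold.

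**Figure D3:**
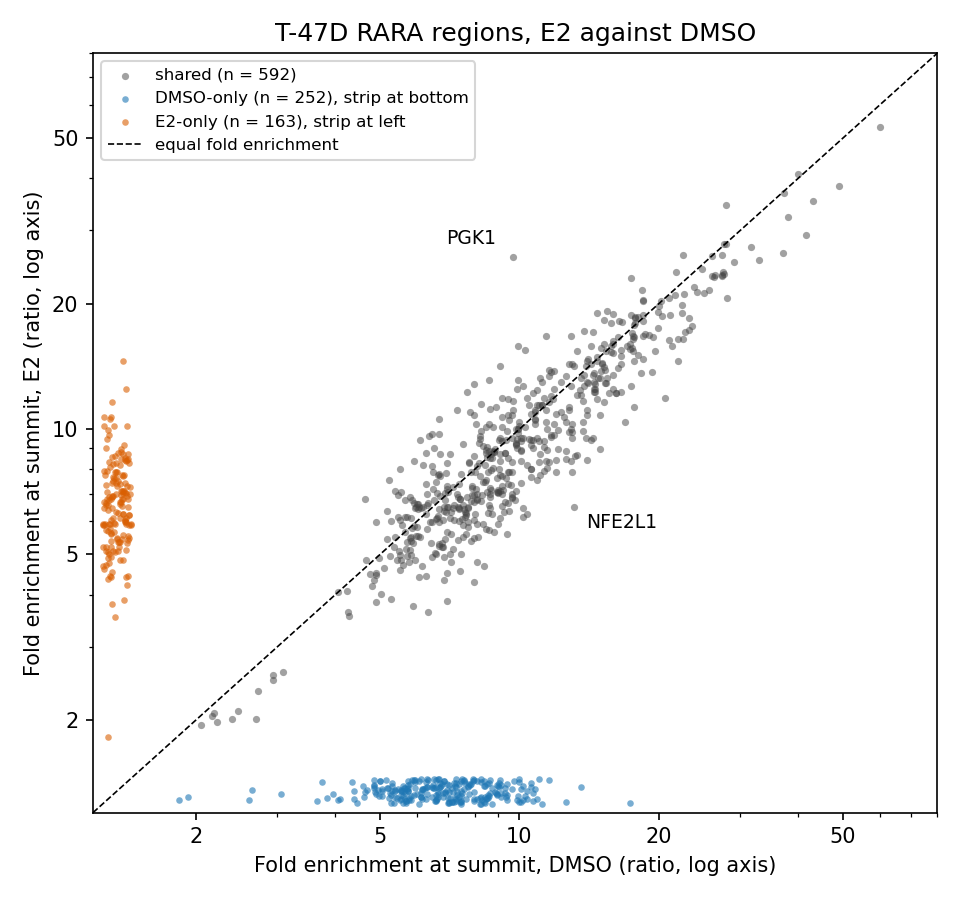
Fold enrichment at the summit after DMSO (horizontal axis) and after E2 (vertical axis), both ratios on log axes, for 592 shared RARA regions, with regions of 1 list alone as strips along the axes. Shared regions follow the dashed line of equal enrichment, with PGK1 above it and NFE2L1 under it, while the DMSO-only strip ends at 17.3 and the E2-only strip at 14.6.

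Of the strongest shared regions, 5 are given here, all upstream of a start site. The region at BMAL1 (chr11:13298832-13299300) had a fold enrichment of 40.0 in DMSO and 41.0 in E2, from pileups of 127 and 118 tags. That at RFX1 had 49.1 and 38.4, and that at EIF2AK3 37.3 and 36.8. Regions at the dynamin gene DNM2 and at the gene of the transcription factor SP2 had 43.1 and 35.2, and 38 and 32.3. These regions had 2 to 7 CCAAT boxes in their windows, with SP2 at 7, and their log2 ratios of E2 to DMSO ran from -0.35 to 0.03.

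The largest gain was at PGK1, the gene of the glycolytic enzyme phosphoglycerate kinase, on the X chromosome (chrX:77359192-77359946). Its pileup was 112 tags in DMSO and 351 in E2, the highest in that list, and its fold enrichment 9.68 and 25.9, a log2 ratio of 1.42. Its local background was 10.7 and 12.6 tags, and the region also overlapped LSD1, MYC and TAF1 regions. The next 4 gains were at LINC01535, ZNF695, PPM1B and BLOC1S3, with log2 ratios of 0.66 to 0.68, well short of that at PGK1. For instance, the zinc finger gene ZNF695 went from 9.91 to 15.8 and the phosphatase gene PPM1B from 7.71 to 12.3. The largest fall was at NFE2L1, which encodes a transcription factor that raises proteasome gene expression, with 13.1 in DMSO and 6.51 in E2 (log2 ratio -1.01). There the pileup was 78 and 70 tags and the local background 5.02 and 9.90, so that the pileup differed less than the background. The next falls were at the splicing helicase gene DHX8 (-0.89), the deubiquitinase gene USP16 (-0.85), the minor spliceosomal RNA gene RNU6ATAC (-0.83) and ENSG00000271780 (-0.81), with E2 pileups between 44 and 62 tags.

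Regions found after 1 treatment alone were weak. The median fold enrichment was 6.85 for DMSO-only and 6.61 for E2-only regions, against 9.38 and 8.78 for shared regions in the same lists, and the median pileups were 37 and 40 tags against 57 and 61. The strongest DMSO-only regions were at OSBPL9 (17.3, 38 tags), RAB40B (13.6) and YPEL2 (12.6), followed by an intron of the aminopeptidase gene AOPEP (11.6), an exon of the noncoding gene SILC1 (11.2) and an intergenic site 22962 bp from ENSG00000268797 (11). The last 3 had no CCAAT box, and each overlapped LSD1 as well as JUN and RNAPII regions. The strongest E2-only regions were in the intron of ENSG00000284686 (14.6, 29 tags) and at TRIM68 (12.5), at the tumour suppressor kinase gene STK11 (11.6), at the magnesium transporter gene MAGT1 (10.7), at LRIF1, which encodes a partner of ligand-bound nuclear receptors (10.7), and at FAM111B (10.6). Start sites thus held 5 of these 6 E2-only regions and 3 of the 6 DMSO-only regions.

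The difference in the CCAAT box between the single-treatment classes was also seen at matched strength. Between fold enrichments of 5 and 7 the box was present in 74.7% of 79 E2-only windows (63.6 to 83.8), 52.9% of 104 DMSO-only windows (42.8 to 62.8) and 78.7% of 94 shared windows. Between 7 and 9 it was present in 76.5% of 51 E2-only windows (62.5 to 87.2) and 62.2% of 82 DMSO-only windows (50.8 to 72.7), and these intervals overlap. Place was not matched: start sites held 83.5% of E2-only and 71.2% of DMSO-only windows in the lower range, and 76.5% and 63.4% in the upper. At start sites of any strength the box was in 80.9% of E2-only (73.1 to 87.3) and 69.0% of DMSO-only windows (61.5 to 75.7), with overlapping intervals. Elsewhere it was in 51.6% and 32.9%. Since each class rests on 1 library, no difference between treatments can be drawn from these shares.

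RARA regions were promoter regions. A start site lay within 250 bp of 847 of the 1007 regions (84.1%): 91.6% of shared (89.0 to 93.7), 69.0% of DMSO-only (62.9 to 74.7) and 80.4% of E2-only regions (73.4 to 86.2). Introns held 20 shared, 40 DMSO-only and 19 E2-only regions, and 23, 33 and 10 were intergenic. Coding exons held 1 shared region. Summits lay upstream of the start. Among summits within 500 bp of a protein-coding start, 87.5% of shared (84.4 to 90.3), 84.1% of DMSO-only and 87.2% of E2-only summits were upstream, at median positions of -79.0, -57.5 and -55.0 bp. TAF1 summits were upstream in 41.7% of cases (40.2 to 43.2), with a median of 4 bp downstream. Divergent promoters, with protein-coding starts on both strands, made up 20.3% (16.9 to 24.0) of the protein-coding promoters with a shared region against 15.6% (14.5 to 16.8) of those with a TAF1 region.

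Regions of H3K4me3, the mark of nucleosomes at active promoters, flanked the RARA summits. These lists were made after 8 h of treatment, not 1 h. An H3K4me3 region of DMSO-treated cells overlapped 80.9% of shared (77.5 to 84.0), 60.3% of DMSO-only (54 to 66.4) and 58.9% of E2-only regions (50.9 to 66.5). Shared regions, as joined intervals, had a median width of 349 bp against 230 and 236 bp, and a wider region touches a flanking region more easily. The part of width in this and the other overlap shares by class was not tested. The summit itself, however, was inside an H3K4me3 region in 12% of shared regions (9.49 to 14.9), 20.6% of DMSO-only and 19.6% of E2-only regions, against 74.0% of TAF1 summits. For shared summits within 500 bp of a coding start, H3K4me3 regions covered 63.6% of positions 300 bp upstream, 12.6% at the summit and 84.9% of positions 300 bp downstream. At 300 bp downstream the DMSO-only and E2-only shares were 83.5% and 84.0%. With the H3K4me3 list of E2-treated cells, 6.25% of shared summits were covered.

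**Figure D4:**
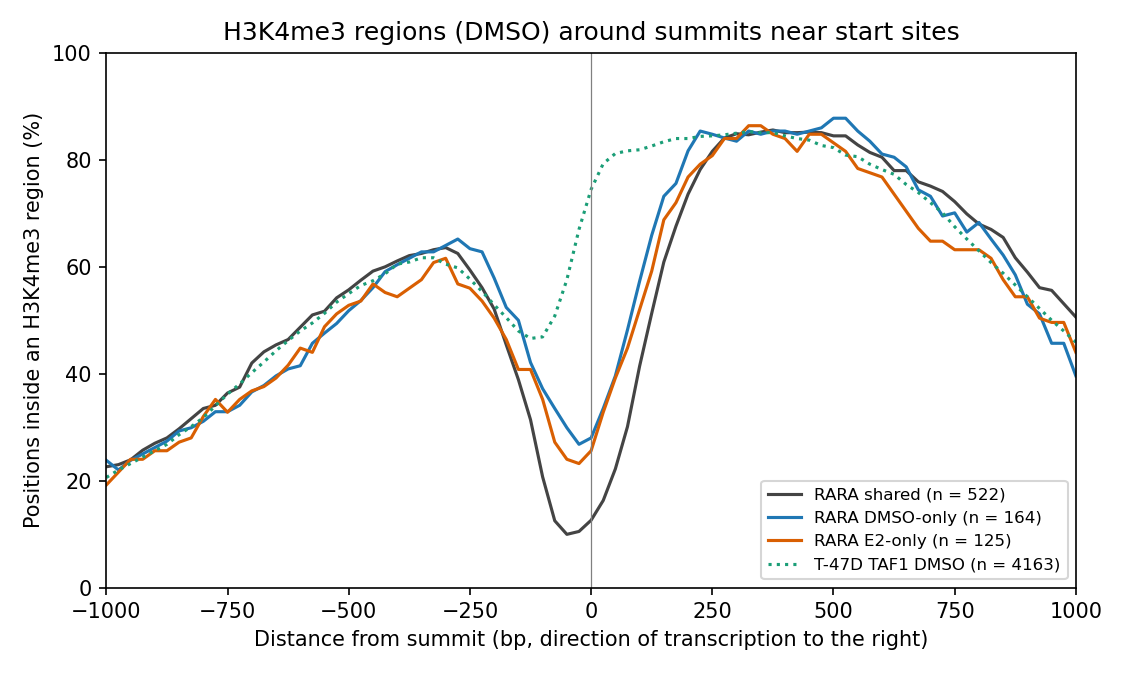
Share of positions inside an H3K4me3 region of DMSO-treated cells (vertical axis, percent) by distance from the summit in bp in the direction of transcription (horizontal axis), for RARA and TAF1 summits within 500 bp of a protein-coding start. RARA summits sit in a gap, at 12.6% for shared regions, between covered flanks, whereas 74.5% of TAF1 summits are covered.

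Most RARA regions touched an RNAPII region, at start sites and elsewhere. RNAPII regions of the first DMSO replicate overlapped 98.3% of shared, 96.4% of DMSO-only and 96.9% of E2-only regions, and the second replicate 85.8%, 85.7% and 83.4%. With a reciprocal overlap of 50% the first replicate gave 17.6%, 7.54% and 7.98%. RARA summits were inside its regions in 97.1%, 96.0% and 96.9% of the classes. For the second replicate these summit shares were 66.7%, 79.0% and 69.9%. Away from start sites the first replicate overlapped 40 of 46 shared, 69 of 76 DMSO-only and 29 of 31 E2-only regions. Regions found in all 4 RNAPII lists overlapped 87.2%, 86.5% and 82.2% of the classes. Of the 54596 combined RNAPII regions, 1.71% were gained, being in both E2 lists and in neither DMSO list. A gained RNAPII region overlapped 0 of the 1007 RARA regions, which allows a share of up to 0.298% by 3 counts and 0.366% by the exact interval, and a lost one overlapped 1, of the E2-only class. A gained region must be absent from the first DMSO replicate. That list alone overlapped 97.6% of RARA regions, so that little room was left for such an overlap. Leaving out this replicate, which relaxes the requirement for a gain, raised the share of RARA regions to 4.87%. The share of all combined RNAPII regions called gained, which is of another set of regions, rose to 6.90%.

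JUN regions of DMSO-treated cells overlapped 95.9% of shared (94.0 to 97.4), 88.5% of DMSO-only (83.9 to 92.2) and 92.6% of E2-only regions. When each region had to cover 50% of the other, these shares were 30.6%, 11.5% and 9.20%. The RARA summit itself was inside a JUN region in 93.4%, 88.5% and 91.4% of the classes. The JUN list held 28703 regions, of which 51.3% were at a start site, and the share of other promoters at JUN is not given here. With TAF1 the shares were 43.9%, 36.1% and 46.0%, and with TAF1 after E2 they were 54.1%, 39.7% and 50.3%. With the reciprocal overlap they were 22.6%, 19.8% and 18.4%, and after E2 28.2%, 15.5% and 12.9%. MYC regions after E2 overlapped 12.5%, 10.7% and 6.75% of the classes, and MAX regions after E2 9.12%, 7.54% and 6.13%. With the reciprocal overlap these were 4.90%, 3.97% and 3.68%, and 5.07%, 5.16% and 2.45%. The H3K4me1 and H3K27me3 lists, like those of H3K4me3, were made after 8 h of treatment, not 1 h. H3K4me1, an enhancer mark, overlapped 1 shared region and 0 of the 252 DMSO-only and 163 E2-only regions, which allows shares of up to 1.19% and 1.84% by 3 counts and 1.45% and 2.24% by the exact interval. Of the 6408 H3K4me1 regions of DMSO-treated cells 8.94% were at a start site, against 84.1% of RARA regions, so that few overlaps could occur. The DMSO list of the Polycomb mark H3K27me3 overlapped 41.2% of shared, 126 of 252 DMSO-only and 39.9% of E2-only regions, or 21.5%, 25.8% and 15.3% with the reciprocal overlap. Of the 6305 regions of that list 85.7% overlapped H3K4me3 and 73.7% reached a start site, which goes against its label, and the list after E2 held 107 regions.

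**Figure D5:**
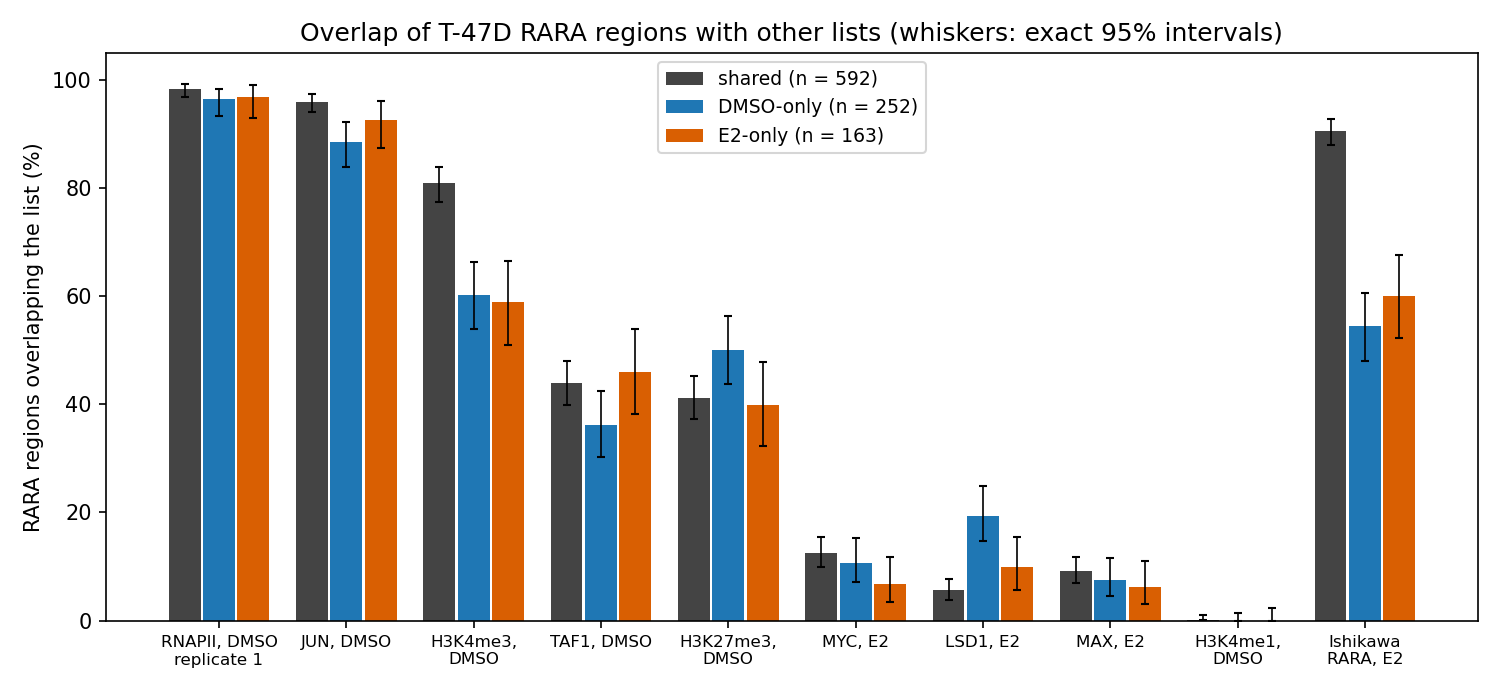
Share of shared, DMSO-only and E2-only RARA regions (vertical axis, percent) that overlap each of 9 T-47D lists and the Ishikawa RARA list after E2 by at least 1 bp, with exact 95% binomial intervals as whiskers. RNAPII and JUN overlap over 88% of every class and H3K4me1 almost none, while LSD1 after E2 overlaps 19.4% of DMSO-only and 5.57% of shared regions.

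LSD1 is a histone demethylase of corepressor complexes. Its list after E2 held 442 regions, of which 8.37% were at a start site and 27% of readable windows had a CCAAT box. It overlapped 19.4% of DMSO-only (14.7 to 24.9), 9.82% of E2-only (5.72 to 15.5) and 5.57% of shared regions (3.87 to 7.74). The LSD1 list of DMSO-treated cells held 42 regions, so that few overlaps could occur. It overlapped 1.19% of DMSO-only, 0.613% of E2-only and 1.18% of shared regions. Of the 442 LSD1 regions after E2, 10 (2.26%) overlapped that list. The counts that follow use the single LSD1 list after E2. Of the 33 shared regions at LSD1, 9.09% were at a start site, against 96.4% of the 559 others. Of their readable windows 31.2% had a CCAAT box, against 92.1% of the others. In the DMSO-only class these shares were 14.3% and 28.6% for the 49 regions at LSD1, and 82.3% and 65.2% for the other 203. Of the 16 E2-only regions at LSD1, 1 was at a start site and 8 had a CCAAT box, against 88.4% and 78.1% for the other 147. Without the regions at LSD1, the CCAAT box share was 92.1% in shared, 78.1% in E2-only and 65.2% in DMSO-only regions, a split chosen after the data had been seen. The part of these regions in the differences between classes was not tested further.

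Of 20090 protein-coding genes, 847 (4.22%) had a RARA region at a start site in DMSO, 804 (4%) in E2 and 1005 (5.00%) in either. Of the 12479 genes with H3K4me3 at a start site in DMSO-treated cells, 979 (7.85%) had one. Genes of the retinoid and estrogen pathways were looked at first. None of the 6 retinoid receptor genes had one, none of 16 genes of retinoid metabolism and binding, such as the retinoic acid hydroxylase genes CYP26A1 and CYP26B1, and none of 26 estrogen-induced genes, such as GREB1, TFF1 and PGR. No RARA region lay within 10 kb of any gene of these 3 lists, which are short beside a share of 5.00% over all genes. H3K4me3 of DMSO-treated cells reached the starts of 6 of the 6 receptor genes and 21 of the 26 estrogen-induced genes. Of 10 genes induced by retinoic acid, 1 had a region, the homeobox gene MEIS1, E2-only with a fold enrichment of 7.43. Of 13 AP-1 and immediate early genes and 4 epithelial keratin genes, 0 had one.

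Among 12 nuclear receptor cofactor genes, 2 had a shared region. The corepressor gene SIN3A had 17.3 in DMSO and 15.6 in E2 with 4 CCAAT boxes, and the coactivator gene NCOA2 had 5.53 and 6.05. Of 15 luminal transcription factor genes, 2 had a start-site region in 1 list alone: GRHL2, an epithelial regulator, with 4.39 in DMSO, and TFAP2C, which shapes luminal chromatin, with 4.37 in E2. A DMSO-only region of 6.86 lay within 10 kb of ELF3. None of these 3 had a CCAAT box. The starts of FOXA1, GATA3 and ESR1 had no RARA region.

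Larger gene groups were then counted. Start-site regions in either treatment were present at 20 of 71 replication-dependent histone genes (28.2%), in several cases 1 region for a divergent pair. The pair H2AC12 and H2BC12 had 6 boxes and fold enrichments of 10.4 in DMSO and 6.26 in E2, H2AC6 and H2BC4 had 7.19 and 7.27, and H2AC15 and H2BC15 had 8.98 and 7.13. The other histone genes were H3C2 (9.21 and 7.13, shared), H2AC20 with H2BC21, H2AC21, H2AC8, H2BC5, H3C4, H4C3 and H4C5 (DMSO-only, 6.08 to 10.6), H2AC17 with H2BC17 and H3C12 (E2-only, 6.79) and H2AC25 with H2BC26 (E2-only, 3.88). Of these, H2AC8, H4C3 and H4C5 had no box.

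Of 83 cytosolic ribosomal protein genes 10 had a region (12%), among them RPLP0 (7.09 in DMSO and 8.70 in E2), RPL13A, RPS20 and RPS26 shared, RPL37, RPS14 and RPS21 in DMSO alone, and RPL13 in E2 alone. Mitochondrial ribosomal protein genes gave 9 of 78 (11.5%), of which MRPL18 (8.63 and 11.2), MRPL24, MRPL53 and MRPS30 were shared, MRPL20, MRPL43 and MRPS10 were DMSO-only and MRPL47 and MRPS28 E2-only. Of 39 proteasome genes, 5 had a region (12.8%): PSMD4 (18.0 and 15.1), PSMB3 (14.5 and 12.3), PSMA5 (11.6 and 8.32) and PSMB7 (6.31 and 6.58) were shared and PSMA3 was DMSO-only. Of 20 splicing factor genes, 4 had one: HNRNPC (23.3 and 18.5) and HNRNPA1, with 2 regions, were shared, and HNRNPK and SRSF2 were E2-only. Of 240 chromosome 19 zinc finger genes, 19 had one (7.92%). ZNF77 (15.2 and 18.3), ZNF555 (16.2 and 12.2), ZNF556, ZNF564, ZNF57, ZNF626, ZNF724 and ZNF430 were shared. ZNF8 (10.7), ZNF98, ZNF85, ZNF875, ZNF304, ZNF91 and ZNF302 were DMSO-only, and ZNF493 (9.15), ZNF574, ZNF729 and ZNF492 were E2-only. Chromosome 19 as a whole carried 10.7% of the DMSO and 11% of the E2 regions, against 7.37% of protein-coding genes and 4.75% of TAF1 regions. Among members with H3K4me3 at a start site, the shares were 44.7% of 38 histone, 12.5% of 80 ribosomal, 11.8% of 76 mitochondrial ribosomal, 13.5% of 37 proteasome, 4 of 20 splicing factor and 8.41% of 214 zinc finger genes, beside 7.85% over all genes with that mark. That of the zinc finger genes was near this background, and no difference was tested.

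After the CCAAT box had been seen, 4 groups of genes with well-known NF-Y promoters were looked up, so that their counts are a description of that choice. Of 20 genes of G2 and mitosis, 8 had a start-site region: CENPF (23.3 in DMSO and 17.3 in E2), the topoisomerase gene TOP2A (17.1 and 15.8), KIF20A (10.1 and 8.40), CDC20 (9.66 and 7.90), BUB1 (8.89 and 11.3), CDC25C (6.30 and 8.74), AURKA (5.71 and 6.15) and, in DMSO alone, AURKB (8.26). Of 16 endoplasmic reticulum chaperone and stress genes, 6 had a shared region: EIF2AK3, the chaperone genes HSP90B1 (24.2 and 21.3), HSPA5 (18.0 and 18.6), CALR (16.6 and 14.3) and CANX (6.38 and 9.62), and PDIA4 (5.56 and 4.86). Of 15 genes of cholesterol synthesis and its control, 6 had a shared region, among them FDFT1 (17.7 and 14.6), MVD (15 and 15.7), FDPS (10.0 and 10.2), HMGCS1 (8.02 and 7.89) and MVK (6.72 and 5.23). Of the 3 NF-Y subunit genes, NFYC had a DMSO-only region of 10.8. Each of these regions had at least 1 CCAAT box, as did 78.9% of all readable windows, and the choice of groups favoured it. Over all protein-coding genes 5.00% had a start-site region, and 7.85% of those with H3K4me3 at a start site.

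Counting the 10 other T-47D targets in any of their lists, the median RARA region of each class overlapped 4, and 6 regions overlapped none. The SIN3A lists were of cells in stripped medium and in full medium, not of DMSO or E2 treatment. SIN3A is among the 8 targets at NCBP2 and FAM83D. The 3 regions with 8 targets were at NCBP2, the small cap-binding subunit gene (6.27 in DMSO and 4.44 in E2), at FAM83D (4.86 and 4.34) and, in DMSO alone, at the translation initiation factor gene EIF3M (5.31), which was named after its values had been seen. A total of 21 shared, 10 DMSO-only and 3 E2-only regions had 7 targets, among them sites of high background. The shared ones with the highest fold enrichment were at ENSG00000288534 (20.2 and 20.3), WARS1, the tryptophanyl-tRNA synthetase gene (13.1 and 14.2), and H3-3B, which encodes the replacement histone H3.3 (9.17 and 10.1). The strongest region away from start sites lay in an exon of SYP on the X chromosome (28.0 in DMSO and 34.5 in E2, 3 CCAAT boxes).

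The low end of the scale held regions of high background. All 11 mitochondrial peaks, 6 in DMSO and 5 in E2, had fold enrichments of 1.82 to 2.70 over backgrounds of 97.6 to 152 tags. Another 12 nuclear regions had a local background of at least 20 tags, of which 8 were shared and 2 were near a start site, and 11 lay on chromosomes 1, 6, 10 and 21. Those that are shared lie at the lower left of the plot of E2 against DMSO fold enrichment.

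Most T-47D RARA regions were also found in Ishikawa cells, an endometrial adenocarcinoma line, with the same antibody. The Ishikawa E2 list, of 2883 regions, overlapped 90.5% of shared (87.9 to 92.8), 54.4% of DMSO-only (48.0 to 60.6) and 60.1% of E2-only regions (52.2 to 67.7). The Ishikawa DMSO list, of 137 regions, overlapped 19.6%, 1.59% and 1.23%. Among T-47D shared regions, 94.3% of those with a CCAAT box were found in the Ishikawa E2 list, against 63.6% of those without. In Ishikawa cells itself the box was present in 86.0% of DMSO and 53.1% of E2 windows, the AP-1 letters TGANTCA in 12.3% of E2 windows against 3.30% of T-47D windows, and the half-site AGGTCA in 14.3% against 7.40%.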

How the data were processed

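RARA ChIP-seq peak lists of T-47D cells (1 library per treatment) were compared with the other T-47D lists. Reads with a single placement on hg19 (GRCh37) were kept by the authors with Bowtie 1.1.2, and MACS2 2.1.0.20140616 called peaks library by library (versions from the submitters' processing notes). The deposited lists hold the summit and its fold enrichment (a ratio to local background), p-value and q-value (both as -log10), and an integer score, the whole part of 10 times the -log10 p-value. No read depth was given in the sources used here. Region numbers depend on depth and on the threshold, and the lowest deposited -log10 p-value was 12 and q-value 7.95 on that scale. Precision was given by exact (Clopper-Pearson) 95% intervals, which cover counting error only.

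Peaks were classed by overlap of at least 1 bp. Shared regions took the joined interval and the summit of the higher fold enrichment. Pileup and background were solved from p-value and fold enrichment, taken as pileup plus 1 over background plus 1, within 0.001. Backgrounds were called whole multiples within 0.03. Start sites were all GENCODE release 44 transcript starts on GRCh37, with 250 bp on each side. A place was assigned as start site first, then by the summit. Windows reached 100 bp to each side of the summit, and those at protein-coding starts ran from 150 bp upstream to 50 bp downstream. Overlap, search and pileup code was tested on simulated data. Python 3.11.15, scipy 1.17.1 and pysam 0.24.0 were used. Alternatives were fold enrichment or q-value minimums, reciprocal overlap, summits, wider start-site windows, other mark lists, narrower motif windows and leaving out RNAPII libraries.

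Named regions were the 6 with the highest fold enrichment of each class (shared: the lower of both lists), the 5 largest and 5 smallest E2 to DMSO ratios, the 5 with most targets, and listed genes with a start-site region or, for retinoid, estrogen, cofactor and luminal lists, a region within 10 kb. Some of these genes are not reported here. Members and lists were chosen with earlier results of these data known, and 4 gene lists, the degenerate repeats, the strength-matched shares and the split by LSD1 after these data had been seen.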

Additional observations from a re-analysis of the deposited data

Results flagged for a closer look

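The number of RARA regions moved in opposite directions in both lines. It went from 844 after DMSO to 755 after E2 in T-47D cells, a ratio of 0.895, and from 137 to 2883 in Ishikawa cells, a ratio of 21. The log2 ratios were -0.16 and 4.40, which differ by 4.56. Local backgrounds were whole multiples of 0.157 tags in 71.5% of Ishikawa DMSO peaks and of 0.433 tags in 67.1% of Ishikawa E2 peaks. In T-47D cells these steps were 0.314 and 0.381 tags, so the libraries may differ in depth, more so in Ishikawa cells. The part of depth in either ratio was not tested. Each number comes from a single library, so the difference was not tested.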

How the results depend on the processing

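The share of DMSO regions overlapped by E2 rose to 92.9% for a fold enrichment of at least 10 and was 74.8% for lists of equal length, and the reverse share was 96.3% and 74.8%. Start sites were at 88.3% of shared regions with protein-coding starts and 88.0% by summit. By summit they were at 66.7% of DMSO-only and 78.5% of E2-only regions. H3K4me3 of E2-treated cells overlapped 73.6% of shared, 51.2% of DMSO-only and 49.7% of E2-only regions, and by summit the DMSO list covered 12%, 20.6% and 19.6%. The median log2 ratio at shared regions turned to 0.01 with the -log10 p-value, and the cause was not tested. With 50 bp on each side, the CCAAT box was in 79.1% of shared, 48.0% of DMSO-only and 65.4% of E2-only windows, the same order as with 100 bp. Leaving out each RNAPII library in turn gave shares at gained RNAPII regions of 0 to 4.87%, the latter without DMSO replicate 1. The ratio of region numbers stayed between 0.868 and 0.918 under its 5 alternatives. Requiring a reciprocal overlap of 50% lowered the shares at TAF1, JUN, H3K27me3, MYC, MAX and RNAPII in every class, and the cause was not tested. By summit, the shares at JUN of DMSO-treated cells were 93.4%, 88.5% and 91.4% of shared, DMSO-only and E2-only regions. At TAF1 of DMSO-treated cells they were 28.7%, 31.0% and 37.4%. Of 65 alternatives, 28 moved a value by less than its 95% interval, 36 by more, and 1 turned its direction. No paired analysis was possible because each treatment had 1 RARA library. Regions of 1 list alone rested on median pileups of 37 and 40 tags, and the part of depth was not tested.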
